A study of Sus scrofa with 48 samples.

Results

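Perirenal fat of pigs carries RNA for proteins at several steps of the complement cascade, and 10 of these genes are described here across diet and genetic line. They are the C1q chains C1QA, C1QB and C1QC, the C1 proteases C1R and C1S, the central component C3, adipsin (CFD), the lectin-pathway genes FCN2 and MASP1, and the complement receptor VSIG4. Probes were taken by the gene name given in the array files, which gave 30 probes of 60305 for 9 of the 10 genes. No probe bore the name CFD, and 2 probes described as complement factor D stood in for it. Total RNA of the whole tissue was read on 1 single-colour Agilent array per animal in 48 castrated male Large White pigs aged 132 days. Each of the 4 groups held 12 pigs: low residual feed intake (RFI) on the low-fat low-fiber, high-starch diet (LF), high RFI on LF, low RFI on the high-fat high-fiber diet (HF), and high RFI on HF. The lines had been selected in opposite directions over several generations for RFI, feed eaten beyond what growth and upkeep predict, so low RFI pigs are the efficient line. Fat and fiber were raised together and starch was lowered, and the paper reports that HF pigs ate less and had relatively smaller fat depots. The effects of these changes cannot be told apart.

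Complement is a chain of plasma proteins that marks microbes and dying cells for removal. C1q, built from the A, B and C chains, recognises bound antibody and cell debris, and activates C1R and C1S, which cut C4 and C2. Ficolins such as FCN2 recognise sugars and act with MASP proteases, and both routes lead to cleavage of C3. In adipose tissue C1q and VSIG4 are typical products of resident macrophages, C1R and C1S are made largely by stromal cells, and CFD, the protease that starts the alternative pathway, is an abundant adipocyte product.

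Levels below are log2 median signals minus the array's median over all probes, so 0 is the median probe. Each gene is read from its brightest probe that passed the background filter. Differences in level between probes of different genes were used only to compare the diets, not to rank genes by abundance. The brightest probes of C1QB and C1QC are shown because the C1q chains are related in sequence. Capitals mark the longest run that a probe shares with the probe of another chain.
C1QB: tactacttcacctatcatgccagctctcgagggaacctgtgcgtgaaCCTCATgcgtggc
C1QC: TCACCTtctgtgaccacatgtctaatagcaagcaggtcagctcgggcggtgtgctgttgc
No run longer than 6 bases was shared between the brightest probes of the 3 chains, each of 60 bases, so the 3 readouts came from different stretches of sequence.

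On each array between 38875 and 47813 probes stood well above background, no spot was saturated, and the median signal was 115 to 178. Of the 30 probes found by gene name, 28 passed the filter, as did both CFD probes. All 10 genes therefore had at least 1 probe in the limma fit of diet, line and their interaction over 43355 probes. A call needed an unadjusted p below 0.01, a fold above 1.1 and a Benjamini-Hochberg (BH) adjusted p below 0.08. All adjusted p-values given for diet and line below come from this fit.

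The 3 C1q chains, VSIG4 and CFD were higher on the HF diet, MASP1 was lower, and C1R, C1S, C3 and FCN2 did not pass the test. Thus 6 of the 10 genes were called for diet, against 25.0% of the 9867 genes tested. The 5 called higher compare with 6.12% of all genes called higher, and the 1 called lower with 18.9% called lower. The median diet difference was 0.44 over the 10 genes and -0.05 over all genes tested (log2, HF minus LF). The 10 genes were chosen with earlier results of these data known. C1QA, C1QC and VSIG4 had r of 0.97 to 0.99 with C1QB. The counts and the median are therefore a description and not 10 independent results. No gene of the 10 was called for line at its brightest probe, against 3.08% of all genes, and 1 had an unadjusted line p below 0.05. None of the 10 was called for the interaction in the limma fit, none had an unadjusted interaction p below 0.05, and 0 of the 9867 genes were called for it.

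**Figure D1:**
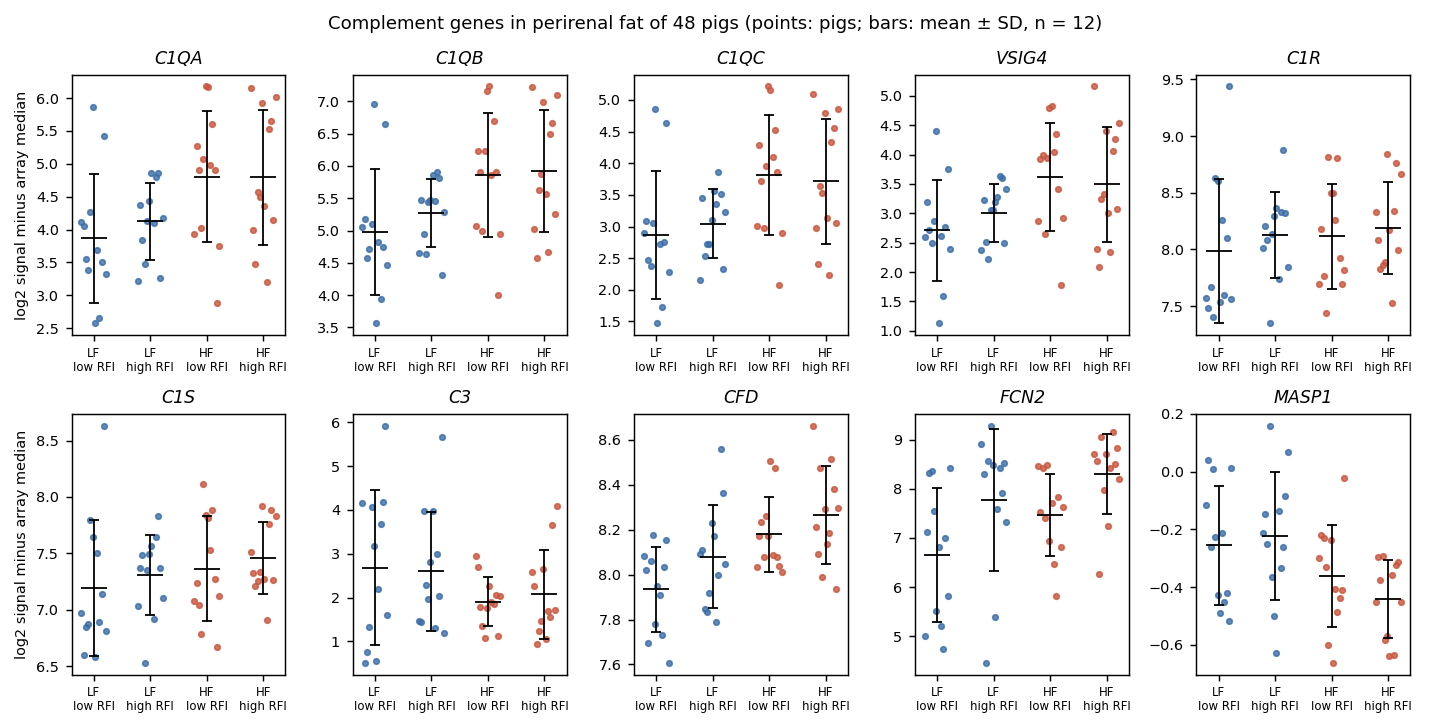
Level of the 10 complement genes in every pig (y axis: log2 median signal minus array median, each gene on its own scale) by diet and line (x axis; blue LF, red HF), with the mean and SD of 12 pigs per group. The C1q chains and VSIG4 are shifted upward on HF in both lines with wide overlap, CFD shows a smaller shift with narrow spread, and single LF pigs reach the highest C3 levels.

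C1QA ranged from 2.57 to 5.86 on LF, with a median of 4.08, and from 2.89 to 6.18 on HF, with a median of 4.90. The diets overlapped widely, yet 17 of 24 HF pigs were above the LF median and only 2 LF pigs were above the HF median. The diet difference was 0.80 ± 0.25 (SE, n = 24 per diet), or 1.74-fold, with an adjusted p of 0.0152. C1QB, the B chain, had a lowest, median and highest level of 3.56, 5.08 and 6.96 on LF and of 4.01, 5.89 and 7.23 on HF. Here 5 HF pigs exceeded every LF pig, and 2 LF pigs were below every HF pig. The difference was 0.76 ± 0.24, or 1.70-fold, with an adjusted p of 0.0155. C1QC ranged from 1.47 to 4.86 on LF, with a median of 2.82, and from 2.08 to 5.21 on HF, with a median of 3.79. The diets overlapped here too, and 21 of 24 HF pigs exceeded the LF median. The difference of 0.81 ± 0.25 was 1.76-fold, with an adjusted p of 0.0118.

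For each of the 3 chains both HF groups had higher means than both LF groups. For C1QA the means were 4.81 (low RFI) and 4.79 (high RFI) on HF, then 4.13 (high RFI) and 3.87 (low RFI) on LF. No step between neighbouring groups reached the pooled SD of 0.91, and the widest step, 0.66, lay between the diets. C1QB had group means of 5.92 (high RFI) and 5.86 (low RFI) on HF and of 5.27 (high RFI) and 4.98 (low RFI) on LF, with a pooled SD of 0.87. C1QC had 3.82 (low RFI) and 3.72 (high RFI) on HF and 3.05 (high RFI) and 2.86 (low RFI) on LF, with a pooled SD of 0.89. Within low RFI pigs the diet was called for 3 of the 10 genes (C1QC, VSIG4 and CFD, all higher), against 13.4% of all genes called and 3.35% called higher. Within high RFI pigs it was called for MASP1 alone, lower, against 15.6% called and 13.0% called lower. Within low RFI pigs the contrast was 0.94 for C1QA, 0.88 for C1QB and 0.95 for C1QC, and only C1QC was called there (adjusted p of 0.0875, 0.0946 and 0.0751). Within high RFI pigs it was 0.66, 0.65 and 0.67, and no chain was called (adjusted p of 0.226, 0.213 and 0.208). The lines did not differ detectably in this contrast: the interaction was 0.27 ± 0.51 for C1QA, with an unadjusted p of 0.592. Interaction values for C1QB and C1QC were 0.23 and 0.28, with standard errors almost as wide as for C1QA.

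VSIG4, a receptor for C3 fragments on tissue macrophages, had levels of 1.13, 2.82 and 4.39 on LF (lowest, median, highest) and of 1.78, 3.66 and 5.16 on HF. Of 24 HF pigs, 19 were above the LF median, and 5 were above every LF pig. The difference was 0.70 ± 0.23, or 1.63-fold, with an adjusted p of 0.0196. It was 0.92 in low RFI pigs, where it was called (adjusted p = 0.0671), and 0.49 in high RFI pigs, where it was not (adjusted p = 0.343). The difference between these contrasts was 0.43 ± 0.46, with an unadjusted p of 0.359.

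The HF mean of C1QA, C1QB, C1QC and VSIG4 exceeded the LF mean on each of the 6 slides, which held 2 pigs of every group. For C1QA the slide differences ran from 0.15 to 1.46, and for VSIG4 from 0.06 to 1.12. All 4 calls were kept in each of the 48 fits that left out 1 pig, with differences of 0.74 to 0.89 for C1QA. The slides were scanned on 2 days, and with the 24 pigs of either day alone none of these 4 genes was called, at differences of 0.77 and 0.83 for C1QA.

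Probes for one gene did not always move together. The second C1QA probe, a custom probe close to the array median, gave 0.39 ± 0.14 (adjusted p = 0.0381) and was called. The second C1QB probe gave 0.02 ± 0.04 (adjusted p = 0.755), and its level stayed between 1.41 and 2.19 over all 48 pigs. Its sequence is shown because it differs in kind from the C1QB probe above. Capitals mark, on the opposite strand, the first 2 bases of glycine codons (GGN) in one reading frame.
C1QB custom: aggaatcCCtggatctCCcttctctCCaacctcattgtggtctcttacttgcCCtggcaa
On that opposite strand the glycine codons are codons 3, 12, 15 and 18 of 20. The spacing is in multiples of 3, as in the collagen-like stalk of C1q chains, but no glycine codon lies between codons 3 and 12. The match of the repeat to the strand opposite to the listed probe is a description, and its part in the flat readout was not tested. VSIG4 had 7 probes, of which 6 were called with differences of 0.47 to 0.70, and 2 of the 7 share 1 sequence. The custom VSIG4 probe, well above background on 36 arrays, gave -0.06 (adjusted p = 0.403). In all, 13 of the 30 member probes that passed the filter were called for diet, against 23.0% of all probes.

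**Figure D2:**
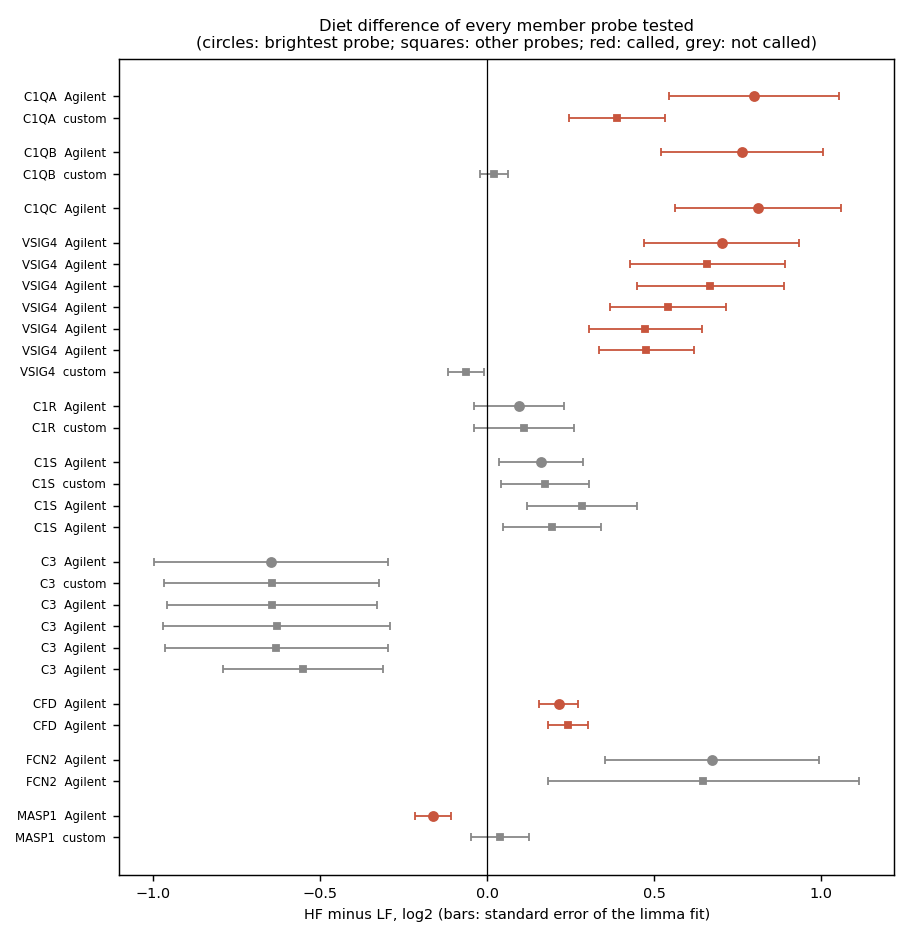
Diet difference (x axis: HF minus LF, log2; bars: standard error) of the 30 probes of the 10 genes that passed the background filter, with the brightest probe of each gene as a circle, other probes as squares and called probes in red. The Agilent probes of the C1q chains and VSIG4 lie between 0.47 and 0.81, while the custom probes of C1QB and VSIG4 lie near 0.

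C1R and C1S, the paired proteases that C1q activates, showed no detectable diet difference. C1R ranged from 7.35 to 9.44 on LF, with a median of 8.09, and from 7.44 to 8.84 on HF, with a median of 8.13. The diets overlapped almost fully, with 12 HF pigs above the LF median, and the difference was 0.09 ± 0.13 (adjusted p = 0.625). C1S had levels of 6.53, 7.25 and 8.63 on LF and of 6.67, 7.30 and 8.12 on HF, and a difference of 0.16 ± 0.13 (adjusted p = 0.349). The second C1R probe gave 0.11 and the other 3 C1S probes 0.17 to 0.28, none of them called. All 4 group means of each gene lay within the pooled SD, 0.48 for C1R and 0.45 for C1S.

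CFD was the member with the narrowest spread among those that rose. It ranged from 7.61 to 8.56 on LF, with a median of 8.03, and from 7.93 to 8.66 on HF, with a median of 8.18. On HF 21 of 24 pigs were above the LF median, and 9 LF pigs were below every HF pig. The difference was 0.21 ± 0.06, or 1.16-fold (adjusted p = 0.00463), and the second CFD probe gave 0.24 ± 0.06 (adjusted p = 0.00218). HF exceeded LF on each of the 6 slides. Group means ran from 8.26 in high RFI pigs on HF through 8.18 and 8.08 to 7.93 in low RFI pigs on LF, each step below the pooled SD of 0.20. The line difference of -0.12 ± 0.06 was not called (adjusted p = 0.403).

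C3, the protein on which all complement routes converge, had its highest values on LF. It ranged from 0.51 to 5.93 on LF, with a median of 2.24, and from 0.93 to 4.09 on HF, with a median of 1.81. The spread was wider on LF, with an SD of 1.55 against 0.81, and 3 LF pigs lay below every HF pig. The difference of -0.65 ± 0.35 was not called (adjusted p = 0.161), nor was that of any of the other 5 C3 probes (-0.65 to -0.55, adjusted p of 0.0772 to 0.159).

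MASP1, a protease that works with ficolins and collectins, lay near the array median. It had levels of -0.63, -0.24 and 0.16 on LF and of -0.66, -0.39 and -0.02 on HF. Its difference of -0.16 ± 0.05, or 1.12-fold, was called (adjusted p = 0.0219), with HF below LF on each of the 6 slides. The contrast within the high RFI line was -0.22 (adjusted p = 0.0567) and within the low RFI line -0.11 (adjusted p = 0.393, not called). The second probe that passed gave 0.04 (adjusted p = 0.762), and 2 further MASP1 probes were well above background on 23 and 4 arrays and were not tested. The MASP1 call was lost when arrays were scaled to their 75th percentile (adjusted p = 0.0679, with an unadjusted p above 0.01) or to the spike-in controls (-0.05).

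FCN2, a secreted ficolin, was the only member with a call for line, at one of its 2 probes. At the brightest probe it ranged from 4.73 to 8.47 in low RFI pigs, with a median of 7.26, and from 4.46 to 9.28 in high RFI pigs, with a median of 8.45. The lines overlapped, and the difference of -0.98 ± 0.32 (low minus high RFI) missed the adjusted threshold (unadjusted p = 0.00372, adjusted p = 0.0968). At the second probe the lowest, median and highest levels were 1.54, 4.05 and 6.64 in the low RFI line and 1.57, 6.56 and 7.52 in the high RFI line. The lines shared their lowest levels but not their medians, and the difference of -1.62 ± 0.47 was called (adjusted p = 0.0437). It was 1 of the 30 member probes tested, against 3.37% of all probes called for line and 1.67% called lower in low RFI pigs. The share of member probes called for line in either direction was thus near that over all probes. The second probe is shown because ficolin genes resemble each other, with the longest run it shares with a probe of the related ficolin FCN1 in capitals.
FCN2 second probe: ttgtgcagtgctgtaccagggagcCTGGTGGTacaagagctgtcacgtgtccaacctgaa
The shared run is 8 bases long, while the levels of the brightest FCN2 probe and of FCN1 followed each other over the 48 pigs (r = 0.86, a description). For diet, FCN2 had levels of 4.46, 7.57 and 9.28 on LF and of 5.82, 8.09 and 9.15 on HF. The diet difference of 0.67 ± 0.32 was not called (adjusted p = 0.108), although HF exceeded LF on each of the 6 slides. The group means were 8.30 in high RFI on HF, 7.76 in high RFI on LF, 7.46 in low RFI on HF and 6.65 in low RFI on LF, with steps below the pooled SD of 1.15. The line difference of the brightest probe was negative on 5 of 6 slides, from -2.15 to 1.04. The second probe was not called for line within HF pigs (-1.61, adjusted p = 0.358) or within LF pigs (-1.64, adjusted p = 0.522). The second probe's call was also lost in a fit that carried the mean of 5 liver transcripts (-1.32, adjusted p = 0.151), an alternative chosen after the data were seen.

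Whether the diet moved C1q differently from C1R, C1S, C3 and CFD was tested on the differences within each pig. These do not change when a constant is added to all log2 values of an array. For each of the 12 pairs of a C1q chain with C1R, C1S, C3 or CFD, the HF and LF means of the log2 difference were compared by permuting diet within line 100000 times (two-sided, BH over the 12 pairs). C1QA minus C1R averaged -3.35 on HF and -4.06 on LF, a shift of 0.71 ± 0.19 (n = 24 per diet, permutation p = 0.0004, adjusted p = 0.00088). Against C1R the 3 chains shifted by 0.67 to 0.72 and against C1S by 0.60 to 0.65, with adjusted permutation p-values of 0.00088 and at most 0.00185. Against C3 they shifted by 1.41 to 1.46 (adjusted permutation p = 0.00088), and against CFD by 0.55 to 0.60 (adjusted permutation p of 0.0182 to 0.0223). All 12 shifts were toward more C1q on HF, on each of the 6 slides, and 17 to 22 of the 24 HF pigs lay above the LF median. The chains are close to 1 measurement repeated, so the pairs are not independent, and they were chosen with the diet differences known. The shifts rest on the brightest probes, and the second C1QA and C1QB probes had diet differences of 0.39 and 0.02. As a description, the stromal markers DCN, LUM and COL1A1 had r of 0.79, 0.65 and 0.59 with C1QB. With C1R they had 0.75, 0.45 and 0.62, and with C1S 0.73, 0.49 and 0.59. CFD had r of -0.17 with ADIPOQ, -0.43 with LEP and 0.55 with CSF1R. With group means removed these were -0.29, -0.15 and 0.47. The cell source of each gene was not tested.

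The chains varied together from pig to pig. Over the 48 pigs, C1QB correlated with C1QA at r = 0.99 (rho = 0.99), with C1QC at r = 0.98 (rho = 0.98) and with VSIG4 at r = 0.97 (rho = 0.96). The permutation p of each was 1e-05, the smallest that 100000 resamples can give, and the adjusted p over the 9 genes correlated with C1QB was 1.8e-05. C1S and C1R followed less closely, at r = 0.75 (rho = 0.76) and r = 0.71 (rho = 0.72) with the same permutation p, and themselves shared r = 0.96 as a description. CFD had r = 0.56 (rho = 0.55, permutation p = 6e-05, adjusted p = 9e-05) and MASP1 r = -0.43 (rho = -0.44, permutation p = 0.00274, adjusted p = 0.00352). C3 and FCN2 did not follow C1QB detectably, at r = 0.18 (rho = 0.22, permutation p = 0.229) and r = 0.11 (rho = 0.10, permutation p = 0.461). Thus 7 of the 9 correlations had an adjusted p below 0.05. The share of all genes that follow C1QB was not counted, so this count is not particular to complement genes. As a description, the stromal marker DCN (r = 0.79) and the adipocyte gene LEP (r = -0.56) also followed C1QB, and ADIPOQ (r = -0.11) did not. With group means removed these were 0.83, -0.41 and -0.21.

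Without the 2 pigs farthest from the C1QB median, r was 0.99 for C1QA, 0.98 for C1QC, 0.96 for VSIG4, 0.73 for C1S, 0.70 for C1R, 0.52 for CFD, -0.46 for MASP1, 0.13 for C3 and 0.09 for FCN2. Removing the group means left C1QA at 0.99, C1S at 0.75, C1R at 0.73 and CFD at 0.44, and raised C3 to 0.33 (adjusted permutation p = 0.0271). Removing the slide means gave 0.99 for C1QA, 0.72 for C1S, 0.67 for C1R, 0.57 for CFD, -0.35 for MASP1 and 0.14 for C3. In LF pigs alone CFD did not follow C1QB (r = 0.24, adjusted permutation p = 0.296), against r = 0.66 in HF pigs. The difference between the diets in this relation was not tested.

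**Figure D3:**
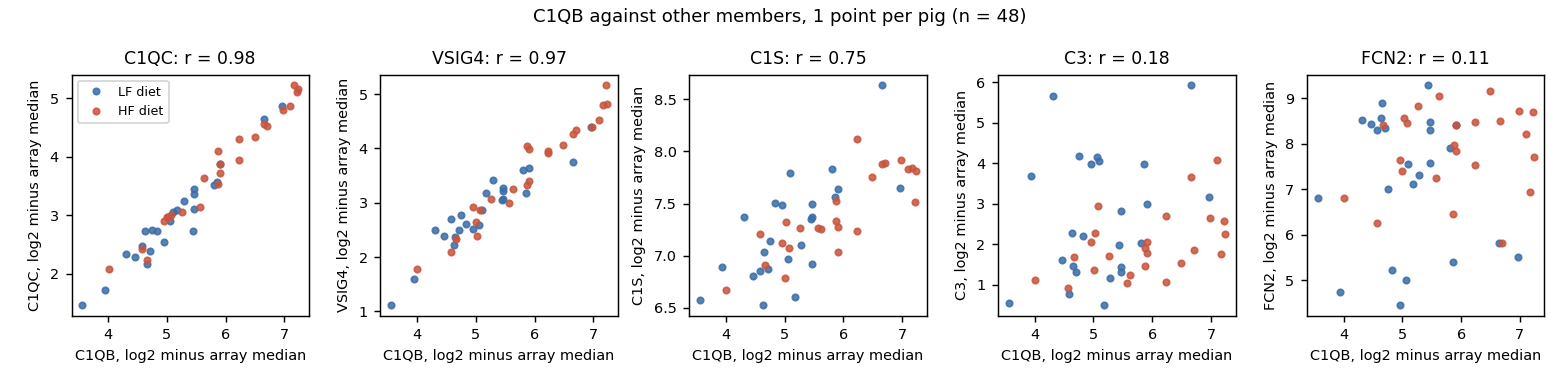
C1QB level (x axis) against C1QC, VSIG4, C1S, C3 and FCN2 (y axes), all as log2 median signal minus array median, 1 point per pig, LF in blue and HF in red. C1QC and VSIG4 lie on a tight line shared by both diets, C1S follows more loosely, and C3 and FCN2 scatter (r = 0.98, 0.97, 0.75, 0.18 and 0.11).

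Genes outside the 10 were ranked by Pearson r with the mean of the 3 chains within groups over the 48 pigs, as a description. Members were left out of this ranking and of those below. VSIG4 had a within-group r of 0.96 with each chain, and C1R and C1S had 0.96 with each other. CD163, a scavenger receptor of macrophages, came first (r = 0.95), followed by C4BPA (0.95), CSF1R (0.95), CFP (0.94), C5AR1 (0.94) and MRC1 (0.93). C4BPA, CFP and C5AR1 are themselves complement genes, for a C4-binding regulator, properdin and the C5a receptor. Outside the members, C1R was most like RARRES2 (0.84), CYBA (0.83) and ACSL5 (0.83), and C1S most like C2 (0.83), its substrate in the cascade. C3 was most like CFB (0.82), its partner in the alternative pathway convertase, followed by GJB1 (0.81), CD5L (0.80), SEC14L2 (0.80) and F2 (0.80). For CFD the closest genes reached only 0.68 (CCL3L1) and 0.64 (PAQR7).

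Of 13 macrophage markers tested 8 were called higher on HF and none lower, against 6.12% and 18.9% of all genes, with a median difference of 0.41, among them CD163 (0.70 ± 0.24, adjusted p = 0.0248) and MRC1 (0.66 ± 0.21, adjusted p = 0.0170). Among the markers not called, CD68, SPI1 and STAB1 lay below the array median, at mean levels of -1.16, -1.03 and -1.12. The markers CD163, CSF1R and MRC1 were not at background. The mean level over all 13 markers, dim ones included, ran from 1.39 to 2.88 on LF and from 1.54 to 3.098 on HF. With that mean as a covariate in the fit, the diet differences were -0.03 ± 0.09 for C1QA, -0.04 for C1QB, -0.01 for C1QC and -0.05 for VSIG4, and none of the 4 was called. CFD (0.13, adjusted p = 0.121) and MASP1 (-0.11, adjusted p = 0.204) also lost their calls in that fit. In the same fit C1QB was called for line, lower in low RFI pigs by -0.26 ± 0.06 (adjusted p = 0.0130), against -0.18 and no call without the covariate. In whole tissue, more cells of a type and more RNA per cell cannot be told apart. Of 12 fibroblast and stromal markers none was called (median 0.21), and their mean level ran from 5.44 to 7.11 on LF and from 5.90 to 7.18 on HF. Of 11 adipocyte markers LEP, PPARG, CEBPA and CIDEC were called lower and RBP4 higher, against the same 18.9% and 6.12% of all genes, while CFD rose. LEP and CIDEC were called at all 3 of their probes, PPARG at 2 of 4, CEBPA at 1 of 2 and RBP4 at 3 of 4. For PPARG the paper reports the opposite direction by quantitative PCR, higher on HF in this tissue. Of other cell types, 2 of 8 T and NK cell markers (CD3G and NKG7) and 1 of 6 endothelial markers (CLDN5) were called higher, and 1 of 3 erythroid markers (SLC4A1) lower, beside the same shares over all genes. None was called among 4 mesothelial, 4 B and plasma cell, 5 granulocyte and 2 adrenal markers, and no kidney marker passed the background filter.

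Further complement genes were taken from a list of 45, of which 27 were tested. Of these 3 were called higher on HF and 5 lower, with a median difference of 0.06. Over all genes 6.12% were called higher and 18.9% lower, so the share called among the 27 was near that over all genes. In the classical pathway C4A (0.51 ± 0.22, adjusted p = 0.0750) and C2 (0.03) were not called, so the 3 C1q chains were the only calls among the 7 genes tested. In the lectin pathway SFTPD, a collectin, fell with MASP1 (-0.20), and FCN1, MASP2 and COLEC12 were not called. In the alternative pathway CFP, which stabilises the convertase, rose with CFD (0.43 ± 0.16, adjusted p = 0.0386), and CFB, like C3, was not called (-0.81 ± 0.40, adjusted p = 0.126). In the terminal pathway C7 rose (0.29 ± 0.10, adjusted p = 0.0254) and was also lower in low RFI pigs (-0.31, adjusted p = 0.0785), while C8G fell by 0.78 (adjusted p = 5.91e-05). Among the regulators CD59, which blocks the membrane attack complex, and VTN fell (-0.33 and -0.21), and C4BPA was not called (0.65 ± 0.27, adjusted p = 0.0659). Among the receptors ITGB2, the common chain of the leukocyte complement receptors, rose (0.37 ± 0.10, adjusted p = 0.00637) and C1QBP fell (-0.16). No gene was called among 14 other genes with a C1q domain, adiponectin (ADIPOQ, 0.08) included.

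**Figure D4:**
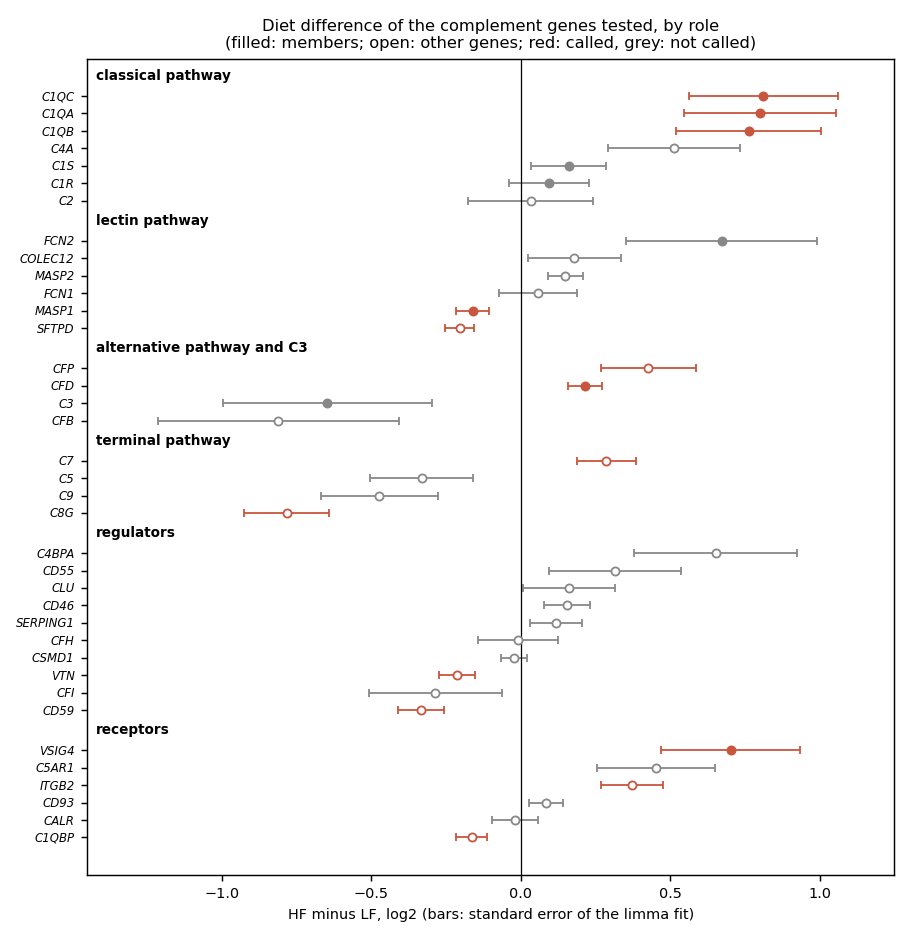
Diet difference (x axis: HF minus LF, log2; bars: standard error) of the 37 complement genes tested, grouped by role, with the 10 genes described here as filled points, other genes open and called genes in red. Calls above 0 are the 3 C1q chains, CFP, CFD, C7, VSIG4 and ITGB2, and calls below 0 are MASP1, SFTPD, C8G, VTN, CD59 and C1QBP.

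C3 followed transcripts typical of liver, and also KRT8, from the list of mesothelial markers (r = 0.73, a description). Transthyretin (TTR), a plasma carrier made mainly by liver, ran from -2.02 to 7.40 over the 48 pigs and exceeded 2 in 16 of them: 6 low RFI and 4 high RFI pigs on LF, and 6 low RFI and no high RFI pigs on HF. Over the 48 pigs C3 correlated with TTR at r = 0.69 (rho = 0.53, permutation p = 2e-05, adjusted p over 13 genes = 6.5e-05), at r = 0.86 on LF and at r = 0.15 on HF. Without the 2 pigs farthest from the TTR median r was 0.61, and with slide means removed it was 0.73. The relation was thus seen on LF and not on HF, and the difference between the diets was not tested. CFB, C5 and C9, which liver also makes, had r of 0.89, 0.84 and 0.83 with TTR (rho of 0.68, 0.73 and 0.66, permutation p = 1e-05). FCN2 ran the other way, at r = -0.50 (rho = -0.46, permutation p = 0.00044, adjusted p = 0.00114), with r of -0.59 on LF, -0.15 on HF, -0.54 without the 2 farthest pigs and -0.56 with slide means removed. For the C1q chains, VSIG4, C1R, C1S, CFD and MASP1, r with TTR was between -0.19 and 0.16, and none had an adjusted permutation p below 0.05.

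The next values leave out the 16 pigs with TTR above 2, a limit set after the data were seen. Without these pigs, which left 14 LF and 18 HF pigs, the C3 diet difference was 0.30 ± 0.28 (adjusted p = 0.469) in place of -0.65, and that of FCN2 was -0.02 in place of 0.67. In the same 32 pigs C3 correlated with C1QB at r = 0.61 (rho = 0.56, adjusted permutation p = 0.000257). The shifts of the C1q chains against C3 shrank from at least 1.41 to 0.56 to 0.65 (permutation p of 0.0332 to 0.0569), while those against C1R, C1S and CFD were 0.53 to 0.70. VSIG4 was then 0.77 (adjusted p = 0.0685) and no longer called, since its unadjusted p exceeded 0.01. The mean of 5 liver transcripts ran from 0.27 to 7.38 on LF and from 0.03 to 4.84 on HF, and none of the 5 was called for diet. Unlike TTR, APOA1 of these 5 was high in every pig (7.39 to 8.93). The part of these transcripts in the C3 and FCN2 values was not tested beyond these fits.

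**Figure D5:**
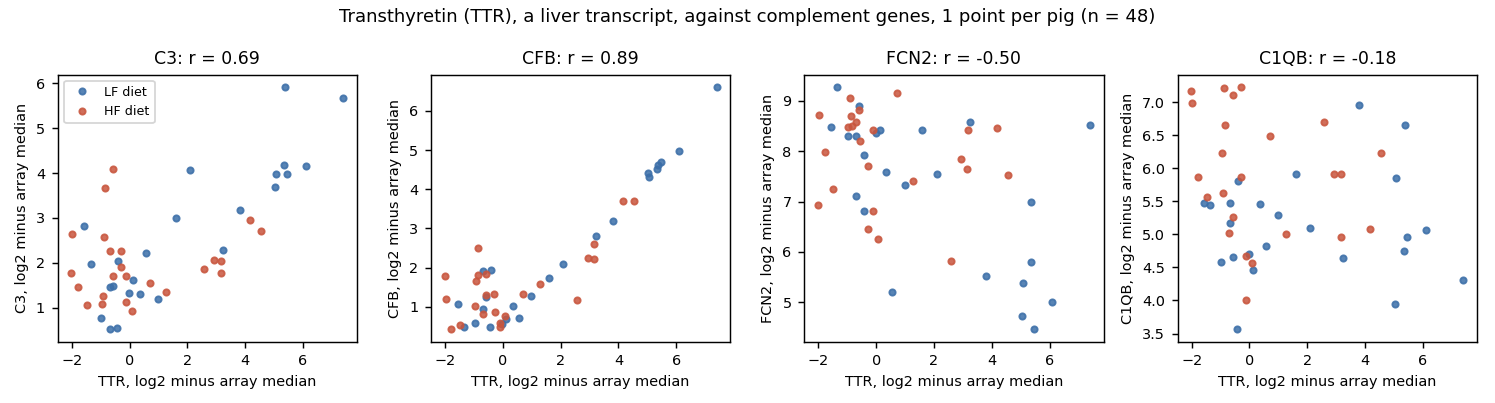
TTR level (x axis) against C3, CFB, FCN2 and C1QB (y axes), all as log2 median signal minus array median, 1 point per pig, LF in blue and HF in red. C3 and CFB climb with TTR (r = 0.69 and 0.89), FCN2 is lowest in several LF pigs with high TTR (r = -0.50), and C1QB scatters (r = -0.18).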

How the data were processed

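Per the labels and the study's methods, total RNA was labelled with Cy3, hybridised to a custom 8 × 60 K Agilent porcine array and read with Feature Extraction 10.7.3.1. The authors filtered spots, took log2 and centred each array on its median, using R 2.10.0. Their deposited log2 table has 38142 rows, all matched by value to the scanner files (tolerance 1e-06), but only 2 row names belonged to their values, so the table served only to choose probes in 1 alternative. The deposited scanner intensity per spot (median signal) was used instead, as log2 minus the array's median over non-control probes. Precision is limited by the number of arrays, 1 per pig.

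Probes well above background on at least 24 of the 48 arrays were fitted with limma 3.58.1 in R 4.3.3 (diet, line, interaction). Permutation tests and correlations used Python 3.11.15. On simulated data with these 43355 probes, the diet test recovered 52.2%, 86.6% and 98.5% of probes changed by 0.25, 0.5 and 1 on the log2 scale. The noise was independent between probes, and far fewer probes were changed than were called in the data. These rates average over probes of every spread. They do not give the power for widely spread genes such as the C1q chains and VSIG4. The genes, lists and tests were chosen with earlier results of these data known. Named genes were the members, the called genes of the complement and marker lists and the nearest genes by correlation. TTR and the uncalled complement genes named with values were chosen after their values were seen. Genes got symbols from the files' names, identifiers and RefSeq tables, and 9867 had a passing probe. Lists of kidney, adrenal, blood, endothelial and mesothelial markers were also scored. Alternatives changed scaling, background correction, filter, model, covariates, thresholds and pigs. The sequence of the C1QA probe is not reported here.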

Additional observations from a re-analysis of the deposited data

How the results depend on the processing

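For diet, 6 of the 10 genes were called, and 4 to 6 under the other scalings, filters, models and thresholds and in each fit without 1 pig. The exceptions were 1 with the macrophage marker mean as a covariate, 1 in low RFI pigs alone, 1 in high RFI pigs alone, 1 in scan day 1 alone and 0 in scan day 2 alone. In these 4 subsets of pigs the 5 genes called higher and MASP1 kept their sign. MASP1 was the call lost under scaling changes. The spike-in scaling moved the median diet difference of all probes from -0.02 to 0.085. For line, 0 genes were called, and 1 with array weights (FCN2), 1 with the macrophage covariate (C1QB), 1 with probes of a gene averaged (FCN2, -1.30), and 0 to 1 without single pigs. That 1 was FCN2, when replicate 3 or 7 of high RFI on HF, 3, 4 or 12 of low RFI on LF, or 3 or 7 of high RFI on LF was left out (-1.02 to -1.13). The interaction gave 0 throughout. Signs turned with the macrophage covariate for C1QA (-0.031), C1QB (-0.041), C1QC (-0.0075), C1R (-0.23), C1S (-0.15) and VSIG4 (-0.052), and C3 was then called (-1.07, adjusted p = 0.0376). They turned without the pigs with TTR above 2 for C3 (0.30) and FCN2 (-0.023), and on slide 2 alone for the line difference of the second FCN2 probe (1.19). Among diet differences that were not called, C1R (-0.25), C1S (-0.26) and C3 (0.73) each turned sign on 1 of 6 slides. The correlation of C1QB with FCN2 was -0.0533 with group means removed and -0.118 in LF pigs. The cause was not tested. Calls over all probes numbered 9993 for diet and 1463 for line, against 440 and 233 at a fold above 1.5 and, for line, 344 without the pigs with TTR above 2, where fewer pigs were fitted. Pigs with the same replicate number in different groups had a median correlation of deviations of 0.121 (72 pairs, 38 over 0.1). Pigs with different numbers in different groups had -0.0113 (792 pairs, 214 over 0.1), and 16 of 48 pigs correlated best with their own number. Pigs with the same number were thus more alike, and they also shared a slide. The labels name no pairs, and the main fit and the permutation tests did not take the numbers as pairs. With the replicate number as a block, the counts were 6 for diet, 0 for line and 0 for the interaction. Depth here is signal over background, which among the 10 genes limits MASP1 and the custom VSIG4 probe most. The called genes C7 (mean level -0.88) and SFTPD (-0.92) lay lower than the brightest MASP1 probe (-0.32).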
